A study of Homo sapiens with 2 samples.

Results

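UBB, one of the human genes for ubiquitin, and SQSTM1, the gene for the autophagy receptor p62, were described together with the gene annotated on the opposite strand of each, ENSG00000265401 for UBB and MRNIP for SQSTM1. These 4 genes were chosen by their deposited log2 values in these libraries, so the levels and gaps given for them are descriptions and carry no test. All 4 had a value in both libraries, among 14467 genes with a value. RNA came from extracellular vesicles that LAD2, an established human mast cell line maintained with stem cell factor, had released, with vesicles collected after 4 days of culture. The 2 libraries, replicates 1 and 2, formed 1 group with no control, and no label says that each came from its own culture, so their spread may be technical only.

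Ubiquitin is a small protein that cells attach to other proteins to mark them for destruction by the proteasome, for sorting or for signalling. No human gene encodes it alone. UBB encodes a head-to-tail chain of ubiquitin units and RPS27A encodes 1 unit fused to a ribosomal protein, and chains and fusions are cut to free ubiquitin. The p62 protein binds ubiquitin on cargo through its ubiquitin-associated domain and binds LC3-type proteins on the forming autophagosome, which links marked cargo to autophagy. MRNIP encodes a protein that interacts with the MRN complex, which senses DNA double-strand breaks.

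Values were read as log2 from the files, which record no transform. The spread between the libraries was narrower at low values, 0.0369 (SD) for means from 2 to 4 against 0.206 from 8 to 10. Each library held 4738 distinct values for 14467 genes, and low genes often shared both of their values with other genes. Whether the transform narrowed the spread was not tested. The SD of a low gene may therefore understate its error and is not a measure of how well the libraries agree. A linear value is 2 to the power of the deposited value, and a gene is called detected where it was at least 10 in both libraries, as for 6576 genes (45.5% of those with a value). The median over all genes was 3.09 in replicate 1 and 3.04 in replicate 2. Of 10 mast cell markers, 7 had a value and 1, the transcription factor GATA2 (9.03 ± 0.19, SD, n = 2), was detected, while the IgE receptor subunits FCER1A and FCER1G and the transcription factor MITF had none. Of 7 vesicle markers, 6 had a value and 4 were detected, led by the tetraspanin CD63 at 6.30 ± 0.06, and CD9 had none. Of 10 markers of other cell types, 3 had a value. The sources used here do not give the strand setting of the authors' counting. How the counting assigned reads between a gene and its opposite-strand partner is therefore not known and was not tested. Which strand's RNA each value measures is uncertain throughout.

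UBB lies on the plus strand of chromosome 17 from 16380798 to 16382745 (GRCh38, GENCODE 29) and has 1621 exonic bases, of which 687 are coding. ENSG00000265401 lies on the minus strand from 16382152 to 16382669, is annotated as a non-coding antisense gene and has 461 exonic bases in 2 exons. Every one of these 461 bases lies inside an exon of UBB, 386 of them in its coding sequence and 75 beyond it. The intron of ENSG00000265401, 57 bases from 16382511 to 16382567, lies inside UBB coding sequence and, read on the minus strand, begins with GT and ends with AG. The coding sequence of UBB holds 3 ubiquitin units of 228 bases each, followed by 3 more bases, and its units are shown because they mark which bases both genes share. Capitals mark bases opposite an exon of ENSG00000265401, on the plus strand of chromosome 17, with unit 1 from 16381908 to 16382135, unit 2 from 16382136 to 16382363 and unit 3 from 16382364 to 16382591.
UBB unit 1: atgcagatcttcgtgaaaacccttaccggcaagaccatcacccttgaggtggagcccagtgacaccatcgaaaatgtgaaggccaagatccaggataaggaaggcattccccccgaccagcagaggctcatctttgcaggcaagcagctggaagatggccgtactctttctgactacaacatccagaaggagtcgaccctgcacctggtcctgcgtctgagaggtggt
UBB unit 2: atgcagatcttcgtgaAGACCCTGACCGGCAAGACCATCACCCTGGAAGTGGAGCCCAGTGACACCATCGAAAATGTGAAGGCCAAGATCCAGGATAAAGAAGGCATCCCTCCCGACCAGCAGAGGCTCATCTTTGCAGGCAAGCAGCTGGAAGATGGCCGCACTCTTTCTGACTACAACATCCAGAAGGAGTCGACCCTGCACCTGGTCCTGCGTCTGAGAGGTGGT
UBB unit 3: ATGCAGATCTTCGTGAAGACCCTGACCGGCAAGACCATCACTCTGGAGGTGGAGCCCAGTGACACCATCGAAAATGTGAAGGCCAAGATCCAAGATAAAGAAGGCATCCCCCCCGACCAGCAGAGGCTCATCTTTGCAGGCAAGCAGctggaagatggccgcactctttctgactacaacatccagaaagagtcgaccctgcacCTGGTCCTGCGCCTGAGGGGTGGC
Unit 1 lies outside the antisense gene, whereas 212 of 228 bases of unit 2 and 171 of 228 bases of unit 3 lie opposite it.

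The 3 UBB units differed from each other at 8 to 12 of 228 bases (94.7% to 96.5% identity). The ubiquitin unit of RPS27A is shown for comparison with UBB unit 1, since near-identical copies can share reads. Capitals here mark bases that differ from UBB unit 1. It lies on the plus strand at chr2:55232825-55234869, introns included in the span. All sequences come from GENCODE 29 transcripts on GRCh38.
RPS27A unit 1: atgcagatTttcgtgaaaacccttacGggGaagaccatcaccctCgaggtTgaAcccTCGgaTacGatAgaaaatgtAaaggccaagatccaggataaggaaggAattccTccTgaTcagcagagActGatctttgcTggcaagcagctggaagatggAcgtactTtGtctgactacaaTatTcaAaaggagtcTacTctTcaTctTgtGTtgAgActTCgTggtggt
RPS27A unit 1 differed from it at 38 bases. Over the 3 UBB units, identity with the RPS27A unit ran from 79.4% to 83.3%, so the UBB units were more like each other than like that of RPS27A. Of the 50-base windows of the stretch that UBB shares with ENSG00000265401, 38.8% (141 of 363) occur also in transcripts of the pseudogenes UBBP1 and UBBP4, on either strand. With windows of 75 bases the share was 9.58%, and with 100 bases 0 of 263 windows occurred in a transcript of another gene. UBBP1 and UBBP4 had no value. The sources used here do not give the read length.

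UBB had 3.45 in replicate 1 and 3.46 in replicate 2, linear values of 10.96 and 11.005, just above the detection threshold. ENSG00000265401 had 14.80 in replicate 1 and 15.29 in replicate 2. These are linear values of 28506 and 40190, or 1.63% and 2.17% of the summed linear value of all genes. The UBB values were the lower ones in both libraries, which describes a pair chosen by these values.

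UBB ranked 6321 of 14467 genes by its mean of 3.46 ± 0.0045 (SD, n = 2), close to the median gene, and ENSG00000265401 ranked 7 by its mean of 15.05 ± 0.35. The antisense gene stood above UBB by 11.35 log2 units in replicate 1 and 11.83 in replicate 2, a mean gap of 11.59 ± 0.35. The UBB value was thus 0.0384% and 0.0274% of the value of its partner. Per kb of merged exons the levels were 2.76 for UBB and 16.16 for ENSG00000265401. This scale assumes that the deposited values are not already corrected for length, which is not recorded. It also assumes that reads can fall on all annotated exons of a gene. On that scale the antisense gene ranked 3 of 13733 genes with an annotated model, and the gap was 13.40. The bases that both genes share make up 28.4% of the exons of UBB and all exons of ENSG00000265401.

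**Figure D1:**
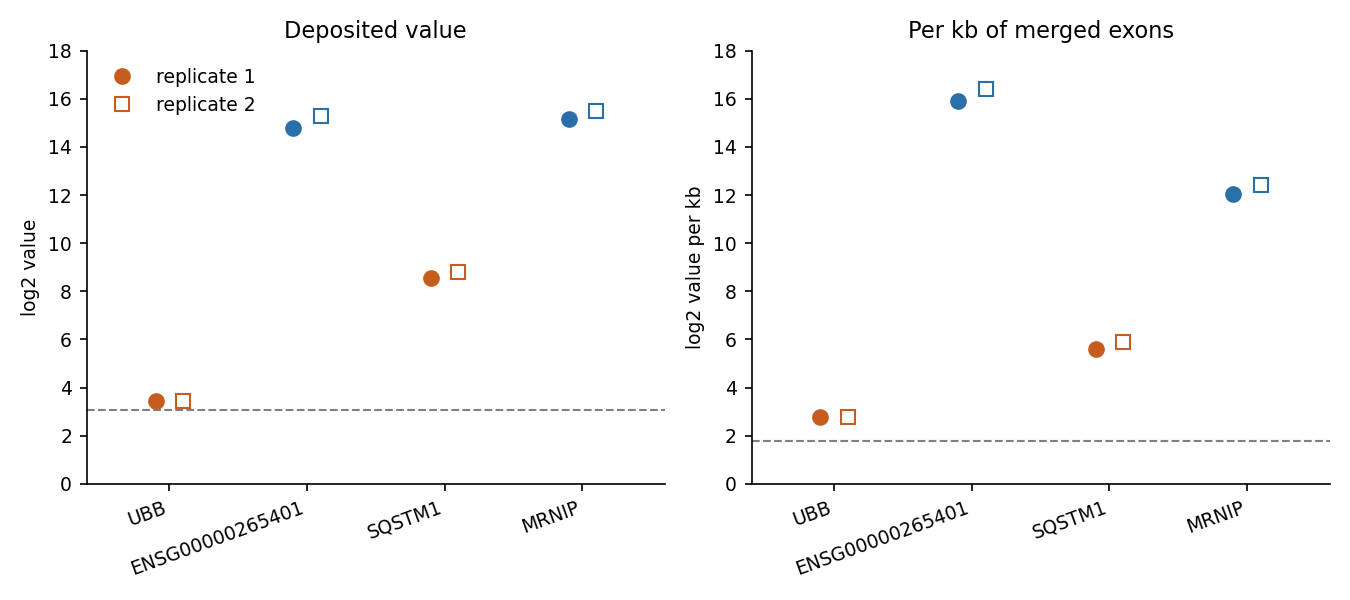
Log2 value of each gene in replicate 1 (filled circles) and replicate 2 (open squares), as deposited on the left and per kb of merged exons on the right, with plus-strand genes in orange, minus-strand genes in blue and the median of all genes as a dashed line. ENSG00000265401 and MRNIP lie above 14 as deposited in both libraries, SQSTM1 lies between 8.54 and 8.82, and UBB lies near the median.

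SQSTM1 lies on the plus strand of chromosome 5 from 179806398 to 179838078 and MRNIP on the minus strand from 179835133 to 179862173, with their 3′ ends overlapping. They share 1582 exonic bases in 2 blocks, 20.7% of the exons of SQSTM1 and 18.6% of those of MRNIP. Of these, 219 are coding in at least 1 SQSTM1 transcript and 516 in at least 1 MRNIP transcript. Of 16 annotated SQSTM1 transcripts 3 reach the shared stretch, all 3 of them coding, and of 25 MRNIP transcripts 12 do, among them all 8 coding ones. In RefSeq (GRCh38.p14) the 3′ end of MRNIP lies at 179837276, which leaves a span of 803 bases in common with SQSTM1. The last coding exon of SQSTM1, chromosome 5 from 179836436 to 179836590 on the plus strand, is shown because it encodes the end of p62 with most of the ubiquitin-associated domain and in GENCODE 29 lies opposite exons of MRNIP over its whole length, marked by capitals. By the RefSeq end of MRNIP this exon lies outside MRNIP.
SQSTM1 last coding exon: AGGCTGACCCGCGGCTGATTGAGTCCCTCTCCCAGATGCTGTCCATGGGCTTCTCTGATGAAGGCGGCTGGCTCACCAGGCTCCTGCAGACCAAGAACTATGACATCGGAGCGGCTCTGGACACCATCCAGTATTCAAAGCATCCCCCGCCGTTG
No window of 36 bases or more from the stretch shared by SQSTM1 and MRNIP occurred in a transcript of another gene, in contrast to the stretch in UBB, where 58.8% of 36-base windows did.

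SQSTM1 had 8.54 in replicate 1 and 8.82 in replicate 2, linear values of 372 and 451. MRNIP had 15.15 in replicate 1 and 15.49 in replicate 2, linear values of 36419 and 46030. MRNIP held 2.08% of the summed linear value in replicate 1 and 2.49% in replicate 2, and SQSTM1 0.0212% and 0.0244%. The MRNIP values were the higher ones in both libraries, again for a pair chosen by these values.

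MRNIP ranked 5 of 14467 genes with a mean of 15.32 ± 0.24 (SD, n = 2), and SQSTM1 ranked 711 with 8.68 ± 0.20. The gap was 6.61 in replicate 1 and 6.67 in replicate 2, a mean of 6.64 ± 0.04, and the SQSTM1 value was 1.02% and 0.980% of that of MRNIP. Per kb of exons MRNIP stood at 12.23 and SQSTM1 at 5.74, a gap of 6.49. MRNIP has 8496 exonic bases, against 461 for ENSG00000265401. The order of these 2 genes differed between the scales: MRNIP was the higher as deposited by less than the SD of ENSG00000265401, and ENSG00000265401 was the higher per kb, where MRNIP ranked 28.

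**Figure D2:**
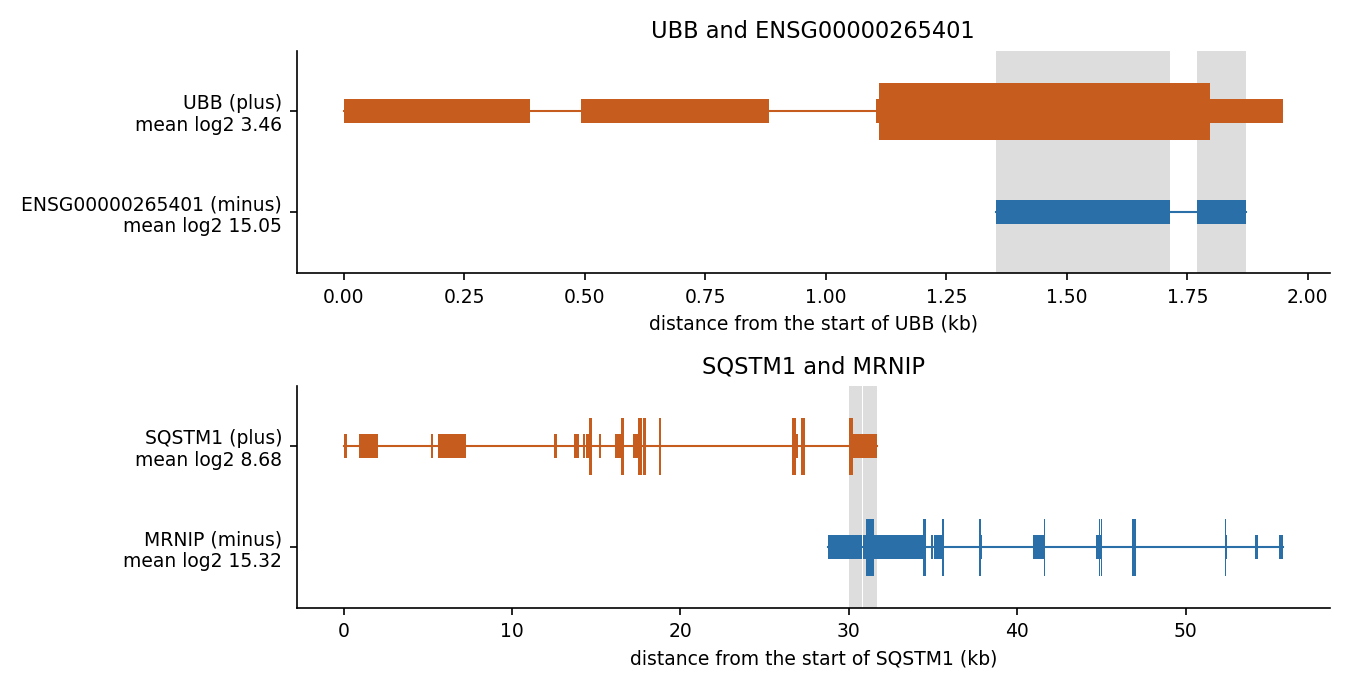
Merged exons of each pair to scale, as distance in kb from the start of UBB (top) and SQSTM1 (bottom), with tall blocks for coding bases, low blocks for other exonic bases and grey bands for exonic bases on both strands. ENSG00000265401 lies wholly inside UBB exons, whereas SQSTM1 and MRNIP share only their ends, 1582 bases.

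Over the whole annotation, 2898 pairs of genes on opposite strands share exonic bases and have a value for both genes, with a median absolute gap of 3.10. A gap as large as that of UBB and ENSG00000265401, in either direction, occurred in 0.414% of pairs (12 pairs), and per kb in 0.38%. A gap as large as that of SQSTM1 and MRNIP occurred in 12.5% of pairs, and per kb in 26.4%. The UBB pair thus lay at the far end of the range of gaps, which reached 13.98. The SQSTM1 pair lay below the 90th percentile of all pairs (7.03) and above that of pairs of protein-coding genes (6.35). Among pairs with both genes detected, 0.0751% had a gap at least as large as UBB and 2.93% one at least as large as SQSTM1. Among 1334 pairs of a protein-coding and an antisense gene, 7 had a gap at least as large as UBB, and among 1091 pairs of protein-coding genes, 88 had one at least as large as SQSTM1. The members were chosen for these values, so the shares place them in the range and test nothing.

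**Figure D3:**
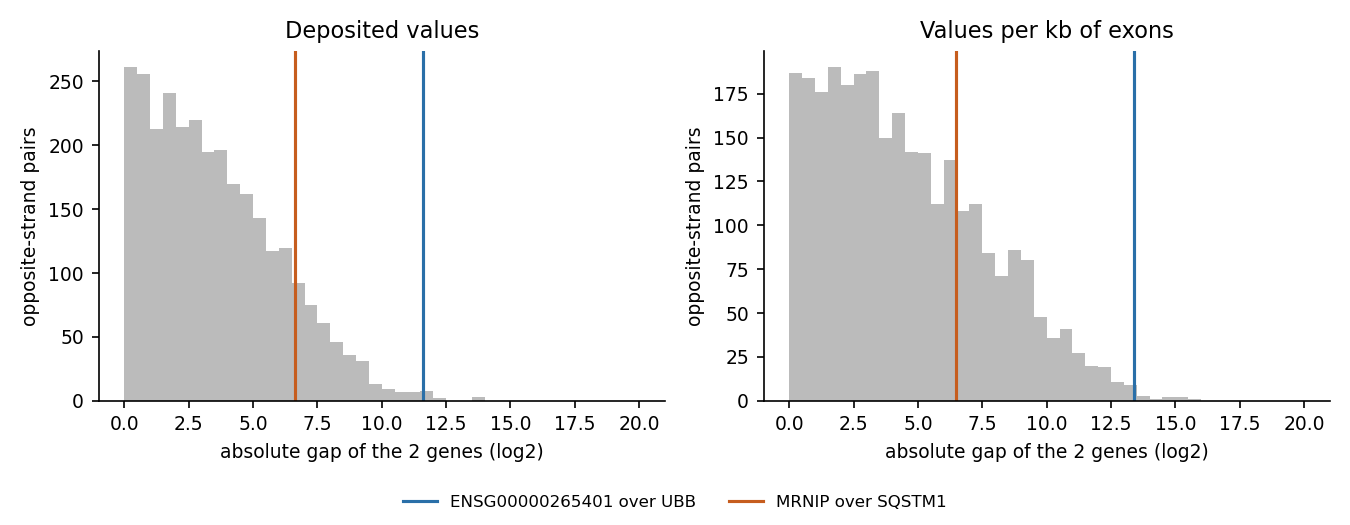
Number of opposite-strand pairs by the absolute log2 gap between their 2 genes, as deposited on the left and per kb of exons on the right, for 2898 pairs. The line for ENSG00000265401 over UBB stands at 11.59 and 13.40, near the end of each distribution, and that for MRNIP over SQSTM1 at 6.64 and 6.49.

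SQSTM1 and MRNIP each share exons with 1 more gene. MGAT4B, a glycosyltransferase of the Golgi, shares 105 exonic bases with the other end of SQSTM1 and had 6.47 in replicate 1 and 6.40 in replicate 2, below SQSTM1. MRNIP-DT, a non-coding gene on the plus strand, shares 194 exonic bases with MRNIP and had 1.35 and 1.33. The gene opposite the start of MRNIP was thus among the low ones, and SQSTM1, opposite its 3′ end, was well above the median of all genes.

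Around UBB, within 100000 bases of the pair, 5 of 5 annotated minus-strand genes had a value, from 2.74 to 15.05 with a median of 8.22. The plus strand had a value for 4 of 10 genes, from -0.24 to 3.84. Those without a value were MIR1288, SNORD49A, SNORD49B, SNORD65, the pseudogene FTLP12 and the processed transcript ENSG00000239203. The minus strand held no such small RNA or pseudogene, so these counts compare unlike kinds of gene and not strands alone. LRRC75A on the minus strand had 11.55 in replicate 1 and 12.29 in replicate 2, while SNHG29, a small nucleolar RNA host gene on the plus strand, stood at 3.84 ± 0.06. The antisense gene ENSG00000264739 had 8.22 ± 0.12 where the cation channel gene TRPV2 had -0.24 ± 0.0047. CENPV, a centromere protein gene on the minus strand, had 5.00 ± 0.08 and PIGL, an enzyme gene of the glycosylphosphatidylinositol anchor, had 2.44 ± 0.03. ENSG00000266651, a minus-strand long non-coding gene, was the lowest on its strand at 2.74 ± 0.04, below UBB and SNHG29. UBB had the second highest of the plus-strand values. Per kb the minus-strand genes ran from 3.48 for CENPV to 16.16 and the plus-strand genes from -2.01 for TRPV2 to 2.76 for UBB. The strands overlapped as deposited and not per kb, where ENSG00000266651, with only 304 exonic bases, stood at 4.46. The highest value per kb of each strand belongs to a member chosen by its value. A comparison over other loci was not made.

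Around SQSTM1 the plus strand had a value for 5 of 6 genes and the minus strand for 4 of 8, with medians of 1.34 and 5.08. All genes without a value here were small RNAs or pseudogenes, so these counts too compare unlike kinds of gene. SQSTM1 was the highest on its strand, and the next was MAML1, a coactivator of Notch signalling, at 3.24 ± 0.01. CANX, the chaperone calnexin, and LTC4S, the leukotriene C4 synthase of mast cells, had the same pair of values, 0.77 and 0.75. That pair was common to 536 genes, so the match is no trait of these 2. On the minus strand MRNIP was followed by MGAT4B at 6.43 ± 0.04, the ubiquitin ligase gene RNF130 at 3.72 ± 0.05 and TBC1D9B at 3.16 ± 0.0027. The high value of MRNIP was thus not shared by its direct minus-strand neighbour TBC1D9B.

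**Figure D4:**
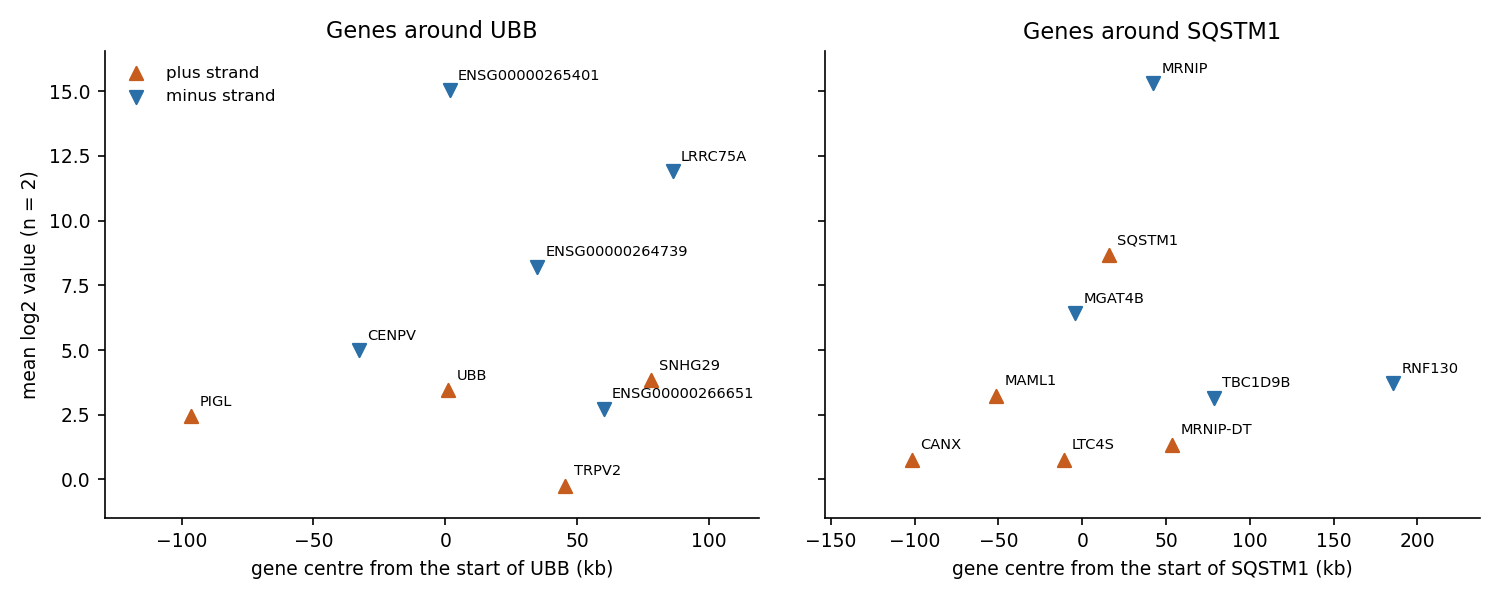
Mean log2 value (n = 2) of every gene with a value within 100000 bases of each pair, by the distance of its centre from the start of UBB (left) or SQSTM1 (right) in kb, with triangles up for the plus and down for the minus strand. Around UBB the minus-strand genes reach 15.05 and no plus-strand gene exceeds 3.84, and around SQSTM1 the highest are MRNIP and SQSTM1.

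Both libraries gave similar values for the members. All 4 were higher in replicate 2 as deposited, by 0.50 for ENSG00000265401, 0.34 for MRNIP, 0.28 for SQSTM1 and 0.01 for UBB. Of all genes with a value 35.9% were higher in replicate 2, but this share moved with level, from 29.4% for means from 2 to 4 through 61.8% from 8 to 10 to 9 of 10 genes above 14. The direction of UBB turned with scaling to the summed linear value, where its difference was -0.0729. No member reached a 2-fold difference, as 0.198% of detected genes did. For UBB this says nothing, since no gene with a mean from 2 to 4 differed by more than 0.131. Its similar values in the 2 libraries are likewise shared by the genes of its level. The SD of ENSG00000265401 was 0.35 where the spread of the 10 genes above 14 was 0.239. That of SQSTM1 was 0.20 where genes from 8 to 10 had 0.206, and that of UBB was 0.0045 where genes from 2 to 4 had 0.0369. The spread of a level leaves out the mean difference of its genes, which the SD of a gene includes, so they are not like measures. Above 14 the median difference was 0.33. Each member is also counted in the spread of its level.

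Adjacent genes in an order of 14467 lie close by construction, so the gaps to them are descriptions. In that order MRNIP stood below BEST1, an ion channel gene, by less than its SD, and above VIM-AS1 by 0.27, slightly more than the SD of 0.26 of VIM-AS1. ENSG00000265401 stood between VIM-AS1 and TUBA1B-AS1, from which it differed by less than its SD of 0.35. SQSTM1 stood between ENSG00000259536 (8.68 ± 0.08) and DOK6 (8.68 ± 0.48), with gaps below its SD. By the distance between the 2 log2 values over the 2 libraries, the genes most like MRNIP were BEST1 (0.170), VIM-AS1 (0.385) and TUBA1B-AS1 (0.672), and those most like ENSG00000265401 were VIM-AS1 (0.0873), TUBA1B-AS1 (0.318) and MRNIP (0.404). For SQSTM1 they were SBF1 (0.0268) and PITRM1-AS1 (0.0436), among others. UBB shared both of its values exactly with 6 other genes, DUSP12, SLC39A1, MIDEAS, JOSD2, LINC01918 and ENSG00000277066, as low genes often do in these files.

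RPS27A, the other ubiquitin precursor gene described here, was lower than UBB, with 1.57 in replicate 1 and 1.55 in replicate 2. It was not detected, whereas UBB was, with a linear value 1 unit above the threshold. Per kb of exons UBB stood at 2.76 and RPS27A at -0.09, against a median of 1.78 over all genes. RPS27A shares exonic bases with the opposite-strand gene CLHC1, which stood at 3.80 ± 0.08. Both precursor genes were thus lower than the gene on their opposite strand.

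Of the genes that act on ubiquitin, the activating enzymes UBA1 (0.76 ± 0.01) and UBA6 (2.74 ± 0.03) had values and were not detected. Conjugating enzymes had a value for 20 of 31 genes and 6 were detected, with a median of 1.85, beside 3.06 over all genes and 2.99 over protein-coding genes. UBE2A, which attaches ubiquitin to PCNA at stalled replication forks together with RAD18, had the highest at 8.23 ± 0.16, and UBE2S, which extends chains with the anaphase-promoting complex, had 5.79 ± 0.15. UBE2R2 had 5.27 ± 0.10 and UBE2D4 4.73 ± 0.09. Ubiquitin-like modifiers had a value for 6 of 11 genes and 1 detected gene, UFM1 at 3.51 ± 0.06, with SUMO3 at 2.12 ± 0.02, SUMO2 at 1.92 ± 0.02 and UBL4A at 0.76 ± 0.01 next. Deubiquitinases, which remove or recycle ubiquitin, had a value for 14 of 20 genes and 4 were detected, with a median of 2.19. UCHL5, a deubiquitinase of the proteasome, led at 8.63 ± 0.22, followed by the tumour suppressor BAP1 at 5.43 ± 0.21, USP47 at 4.03 ± 0.09 and the proteasome-bound USP14 at 3.76 ± 0.01.

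SQSTM1 was the highest of the autophagy receptors, of which 9 of 11 had a value and 5 were detected, with a median of 4.55. TAX1BP1, a receptor that binds ubiquitin, followed at 7.10 ± 0.09, then NCOA4, the receptor for ferritin, at 6.76 ± 0.03, the mitochondrial receptor BNIP3 at 4.86 ± 0.02 and NBR1, which is related to p62, at 4.55 ± 0.07. RETREG1 (3.19 ± 0.05), OPTN (2.97 ± 0.03), BNIP3L (2.91 ± 0.04) and TOLLIP (1.75 ± 0.02) were below the threshold, and CALCOCO2 and FUNDC1 had no value. Per kb SQSTM1 (5.74) also stood above NCOA4 (4.74) and TAX1BP1 (3.90). The ATG8 family, whose LC3 and GABARAP proteins p62 binds, had a value for 2 of 7 genes, MAP1LC3B at 3.01 ± 0.05 and MAP1LC3B2 at 2.53 ± 0.03, and neither was detected. MAP1LC3A, MAP1LC3C, GABARAP, GABARAPL1 and GABARAPL2 had no value, although ENSG00000279641, which shares exonic bases with GABARAP on the other strand, had 11.95 ± 0.52. Genes of autophagosome formation had a value for 11 of 23 and 6 were detected. The highest was ATG10 at 13.64 ± 0.27, an enzyme of the ATG12 conjugation system. ATG7, an enzyme of both the ATG12 and the ATG8 conjugation systems, had 9.19 ± 0.52. WIPI1 had 6.23 ± 0.0040 and ATG14 had 6.16 ± 0.07.

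Among partners of p62 and its transcriptional regulator, 10 of 13 had a value and 5 were detected, with a median of 3.21. NFE2L2, the transcription factor of the oxidative stress response that acts on SQSTM1 and is stabilised when p62 binds KEAP1, was the highest at 12.05 in replicate 1 and 11.95 in replicate 2. KEAP1 itself had 2.33 ± 0.03. The atypical kinase PRKCZ had 6.12 ± 0.02, CASP8 5.98 ± 0.16, the ubiquitin ligase TRAF6 4.00 ± 0.02 and RIPK1 3.88 ± 0.08. TBK1, a kinase that phosphorylates p62, had 2.55 ± 0.03, HDAC6 2.44 ± 0.03, RPTOR 1.81 ± 0.02 and WDFY3 1.75 ± 0.02, none of them detected. PRKCI, MAP2K5 and MAP3K3 had no value.

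MRNIP acts with the MRN complex, and the genes of that complex were unequal. NBN had 9.57 in replicate 1 and 9.46 in replicate 2, MRE11 had 0.77 and 0.75, a low pair of values common to 536 genes, and RAD50 had no value. Of the 9 genes of the complex and of signalling by the kinase ATM, 7 had a value and 4 were detected, with a median of 3.53. TP53BP1 stood at 9.20 ± 0.02, CHEK2 at 6.02 ± 0.10 and MDC1 at 3.53 ± 0.06, while H2AX (2.98 ± 0.03) and ATM (2.97 ± 0.03) were below the threshold and RBBP8 had no value. MRNIP, which was chosen by its value, lay above NBN as deposited and per kb (12.23 and 6.90).

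**Figure D5:**
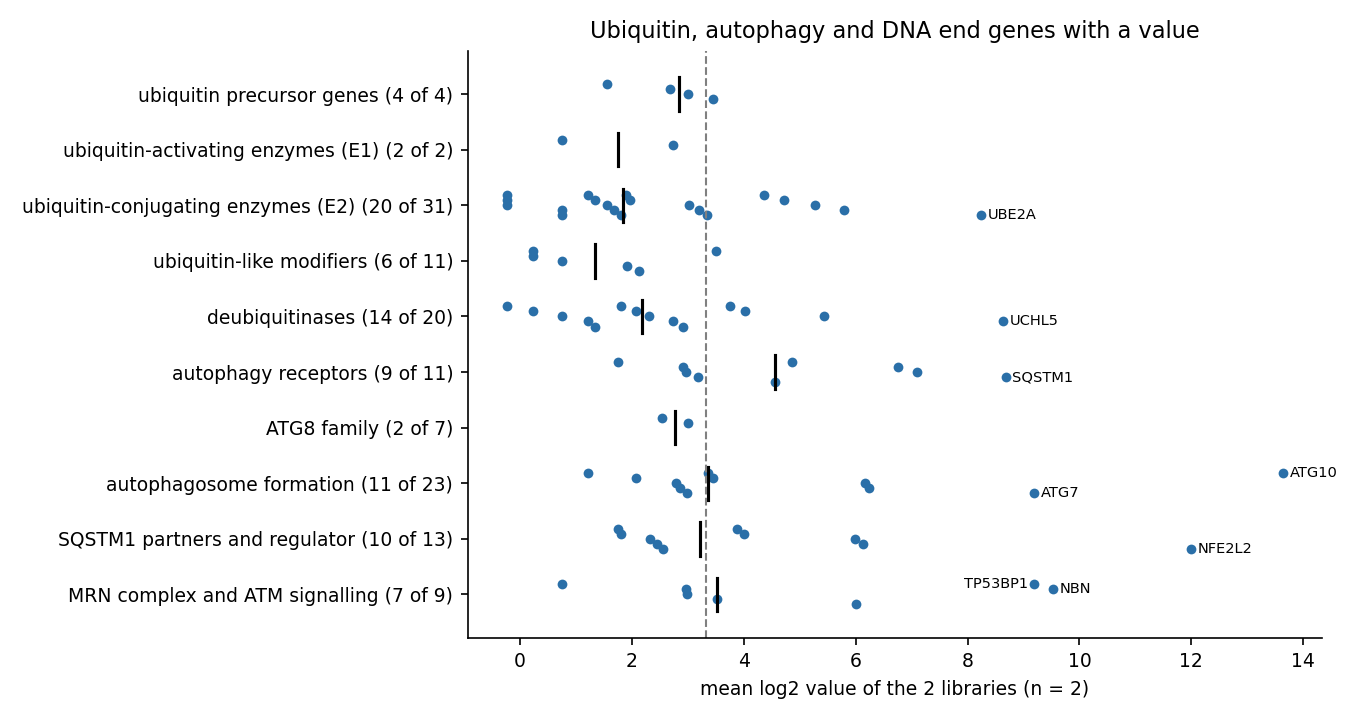
Mean log2 value (n = 2) of each gene with a value in 10 lists, with the number of list genes that had a value in brackets, a black bar at the list median and a dashed line at the detection threshold. SQSTM1 is the highest autophagy receptor at 8.68, all ubiquitin precursor and activating genes lie at or below 3.46, and 8 genes of the 10 lists reach 8.

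Over the 10 lists, 85 of 131 genes had a value (64.9%), beside 42.3% of all protein-coding genes. Of the 85, 32 were detected (37.6%), beside 3675 of 8431 protein-coding genes with a value and 45.5% of all genes with a value. An opposite-strand gene had a value for 39 of the 85, and it was the higher of the 2 in 29. Without UBB and SQSTM1 it was the higher in 27 of 37 (73.0%), beside 63% of 3211 protein-coding genes with such a partner. Examples were RETREG1-AS1 at 10.25 ± 0.19, against 3.19 for RETREG1, and MDC1-AS1 at 9.09 ± 0.01, against 3.53 for MDC1. The list gene was the higher in 10, among them ATG10 over the ribosomal protein gene RPS23 (4.83 ± 0.09), NFE2L2 over ENSG00000222043 (6.85 ± 0.09), UCHL5 over RO60 (5.59 ± 0.01) and TAX1BP1 over JAZF1 (4.08 ± 0.04). These counts describe the lists, which were chosen with earlier results of these data known.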

How the data were processed

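RNA sequencing values of 2 vesicle libraries were used. The authors deposited 1 log2 value per gene and library; that the scale is log2 was read from the values, and the transform and normalization are not recorded. Per the submitters' processing notes, FastQC 0.11.5, STAR 2.6.1a and hg38 were used; the sources used here do not give the counting tool, strand setting or annotation. Read depth is unknown, so no counting interval is given. Means and SDs were computed over the 2 libraries with Python 3.11.15, numpy 2.4.6 and pandas 2.3.3. Symbols matched 11066 of 14467 identifiers. Positions, merged exons and transcript sequences came from GENCODE 29 (GRCh38), with models for 13733 identifiers. Opposite-strand pairs share at least 1 exonic base. No test was possible for 1 group. Named genes were the members, their opposite-strand genes, neighbours within 100000 bases, the 3 genes nearest in value, whole short lists and up to 4 highest genes of the longer ones; opposite-strand genes of list members were chosen after their values were seen. Members and lists were chosen with earlier results of these data known. Pair finding and counts were tested on simulated data. Some genes within these rules and lists are not reported here.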

Additional observations from a re-analysis of the deposited data

How the results depend on the processing

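No paired analysis was possible because all samples belong to 1 group. With 2 libraries, leaving out either gives the value of the other, so it says nothing about stability. Per kb of exons the levels were 2.76 for UBB, 16.16 for ENSG00000265401, 5.74 for SQSTM1 and 12.23 for MRNIP, the gaps were 13.40 and 6.49, and the median of the 10 lists was 0.32. In ppm of the summed linear value the log2 levels were 2.61, 14.20, 7.83 and 14.47 in the same order, and without the 10 highest genes 2.996, 14.59, 8.22 and 14.86. With log2(value + 5) the gap of ENSG00000265401 over UBB was 11.05. Among pairs with both genes detected, gaps at least as large made up 0.0751% for UBB and 2.93% for SQSTM1, since low genes were left out. The difference of UBB between replicates turned to -0.0729 in ppm and to -0.0817 without mitochondrial genes. List genes detected were 51 at a linear value of 5 and 16 at 50, against 32. Depth is unknown, and the transform behind the values is not recorded, which limits what can be said of UBB and other low genes.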
